A study of Solenopsis invicta with 52 samples.

Results

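In the fire ant Solenopsis invicta, 100 genes were taken whose group means in the gaster, the swollen rear part of the body, lay furthest apart by colony of origin. They were chosen from 16314 gene identifiers by their own gaster values. For each gene the mean of log2(CPM + 0.5), where CPM is the gene's count scaled to the same total of counts in genes in every library, was taken in each of 4 groups of workers. Of 9516 genes with a mean of at least 1 CPM in all 4 groups, 3677 had both polygyne-origin means above, or both below, both monogyne-origin means. The gap is the distance between these sets of means. In 1583 genes the gap was larger than the difference between the 2 monogyne-origin groups, and the 100 with the largest gaps are described here. The gaster differences between groups are therefore a description with no test, and groups were tested only in brain, which the choice did not use. A further test, of whether single workers kept their level across tissues, uses deviations from the group means in both tissues and so the gaster libraries that chose the members.

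Fire ant colonies come in a monogyne form with a single egg-laying queen and a polygyne form with several. The form goes with a supergene, a stretch of chromosome inherited as a block, with the variants SB and Sb. Monogyne colonies hold SB/SB workers, while polygyne colonies hold both SB/SB and SB/Sb workers, so that a worker's own genotype and its social surroundings can both differ between the forms. The gaster holds most of the fat body, the gut and the venom gland.

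Pupae from Florida colonies were moved into host colonies formed from 10 monogyne and 9 polygyne stock colonies. Each transfer moved 25 to 40 dark worker pupae into a host of 250 workers, with 1 SB/SB queen in monogyne hosts and 2 SB/Sb queens in polygyne hosts. Workers were sampled 16 days later, as minor workers of 0.6 to 0.9 mg that were 14 to 16 days old, and RNA was sequenced from single brains and single gasters. A stock colony was used once as donor or host in a treatment. Monogyne-origin pupae were all SB/SB and went either to monogyne hosts, giving mBB, or to polygyne hosts, giving mpBB. Polygyne-origin pupae went to polygyne hosts only, and their SB/SB workers made up pBB and their SB/Sb workers pBL. The pooled origin contrast also differs in genotype, through pBL, and in host, through mBB. The comparison of pBB with mpBB shares genotype and host form and differs in origin. With origin it also differs in whether the host had the same form as the colony of origin. These groups share no replicate number either. Origin covers both the parents and the colony in which a pupa grew up, which cannot be told apart.

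There were 28 brain libraries, 7 a group, with 14527840 to 70040807 counts in genes, and 24 gaster libraries, 6 a group, with 30006031 to 77315812 counts. The 52 libraries came from 32 workers, of which 20 gave both tissues, 8 only a brain and 4 only a gaster. Brain and gaster libraries were made with different kits, so no level was compared between tissues as such. No identifier in the files could be matched to a gene name, so members are given by identifier, with no role, position or sequence. For the same reason neither tissue could be checked against its marker genes. Brains mBB 4, pBL 2 and pBL 6 stood furthest from the other brains.

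A check added after the data were seen compared the tissues of each worker over the 200 genes that varied most between workers. For 19 of the 20 workers the brain most like the gaster was the brain labelled with the same individual, with correlations over genes from 0.238 to 0.648. For pBB replicate 3 the correlation was 0.00996 and its labelled brain ranked only 12. Over 100 genes the count was again 19, and over 400 genes it was 16, where the own brain of mpBB 11, pBB 1 and pBL 6 ranked 2. The brain and gaster libraries labelled pBB replicate 3 therefore go against their shared individual label. Group comparisons within a tissue do not use that pairing, and results that do are given with and without this worker. Whether either library is also in another group than its label was not tested, so brain comparisons were repeated without that brain and the gaster list without that gaster.

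In gaster, 39 members were higher and 61 lower in workers of polygyne origin. The gaps ran from 0.307 to 1.85 log2 units with a median of 0.393, and 7 were 1 or more. The difference between the mean of both polygyne-origin groups and the mean of both monogyne-origin groups had a median size of 0.57, against 0.0744 over the 9516 genes. Groups within an origin lay closer. The median difference between pBL and pBB, which differ in genotype, was 0.115, and pBL lay further from the monogyne-origin groups than pBB did in 50 of the 100 members. The median difference between mpBB and mBB, which differ in host, was 0.158, a difference that the rule kept below the gap. In 65 members mpBB lay on the polygyne-origin side of mBB. In whole gasters, fewer cells of a type and less RNA per cell cannot be told apart.

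The last gene taken was SINVBB1_14015, with a gap of 0.307 and means of 7.21 in mBB, 7.16 in mpBB, 6.83 in pBB and 6.85 in pBL. The first gene left out was SINVBB1_04470, with a gap of 0.304 and means of 8.91, 8.73, 8.30 and 8.42 in the same order. The list ends within a continuous range of gaps.

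The member higher in polygyne origin with the largest gap was SINVBB1_04374. It had 1.79 CPM at the lowest, 5.42 at the median and 13.8 at the highest in mBB, and 5.74, 8.27 and 16.6 CPM in mpBB. It had 14.9, 22.2 and 80.0 CPM in pBB, and 4.62, 24.6 and 61.1 CPM in pBL. Every pBB gaster lay above every monogyne-origin gaster other than mpBB replicate 17, while pBL 3 and pBL 5, at 4.62 and 13.1 CPM, lay within the mBB range. SINVBB1_02585, which had the largest gap among higher members relative to the spread within groups, reached 2.31 to 6.53 CPM in mBB and 2.304 to 3.64 in mpBB. It reached 3.21 to 9.46 CPM in pBB and 3.05 to 7.15 in pBL, so that the groups overlapped at their edges. SINVBB1_04374 and the member in the next row of the count files, SINVBB1_04373, with a gap of 0.97, were both higher.

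The member with the largest gap of all was SINVBB1_14742, which was lower in polygyne origin. It had 46.7 CPM at the lowest, 151 at the median and 401 at the highest in mBB, and 54.2, 75.2 and 181 CPM in mpBB. In pBB it had 5.55, 19.8 and 73.4 CPM, and in pBL 0.664, 33.8 and 134 CPM. Most polygyne-origin gasters lay below every monogyne-origin gaster, but pBB 3 and 6 and pBL 5 and 8 lay within the monogyne-origin range. SINVBB1_01717 had the largest gap relative to its spread, with 72.7 to 116 CPM in mBB and 86.8 to 134 in mpBB. It had 58.2 to 97.3 CPM in pBB and 60.3 to 82.6 in pBL, and 93.8% of the pairs made of a polygyne-origin and a monogyne-origin gaster were in its direction. SINVBB1_05365 had 6.10 to 11.5 CPM in mBB, 4.74 to 10.9 in mpBB, 4.04 to 5.77 in pBB and 3.26 to 8.46 in pBL. Its pBB values were the narrowest, and a single mpBB gaster fell among them.

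**Figure D1:**
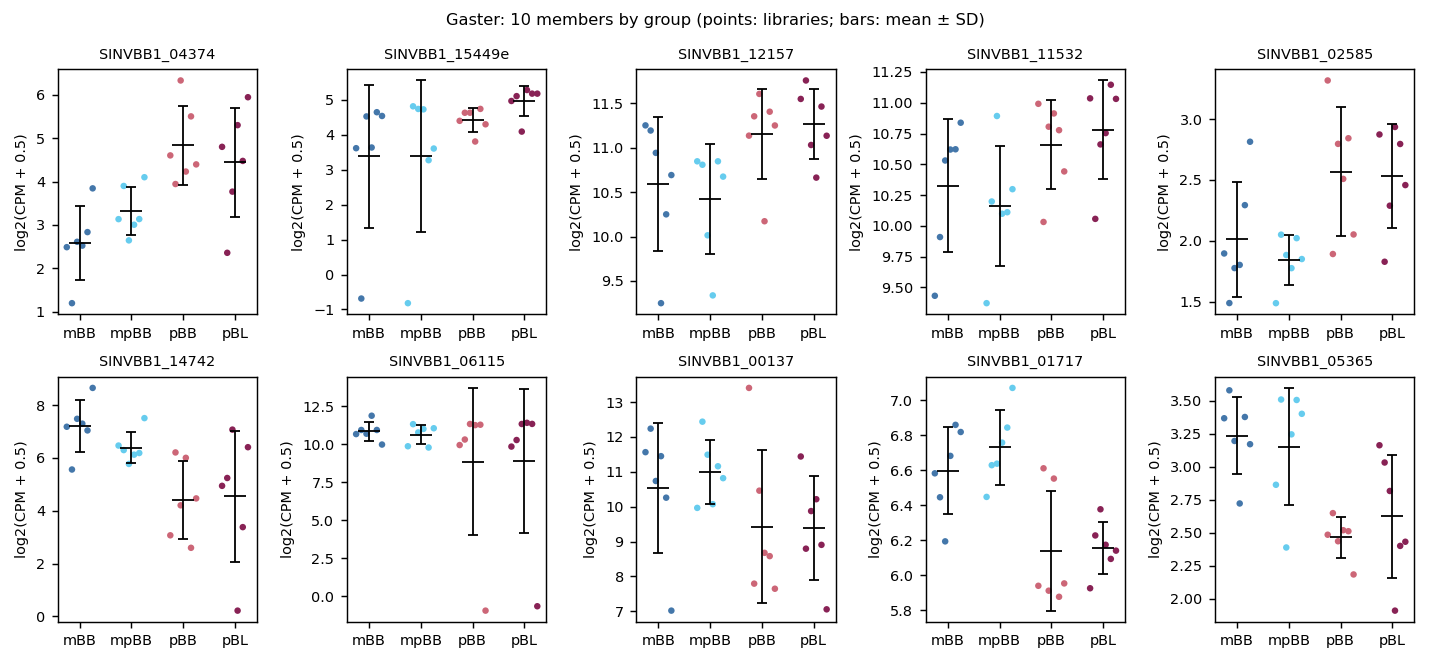
Level of 10 members in each gaster library, as log2(CPM + 0.5), by group. Points are libraries, 6 a group, and bars show the mean ± SD. In SINVBB1_06115 the group means are set apart by libraries near 0, and in SINVBB1_15449e such libraries widen the gap. SINVBB1_01717 and SINVBB1_05365 show a shift of most libraries.

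Members with high counts were found in both directions. SINVBB1_12157 had 1705 ± 701 CPM in mBB and 1465 ± 506 in mpBB, against 2382 ± 669 in pBB and 2542 ± 674 in pBL (SD, n = 6 each). SINVBB1_11532 had 1352 ± 432 and 1199 ± 401 CPM in mBB and mpBB, against 1657 ± 371 in pBB and 1811 ± 440 in pBL (SD, n = 6 each). In both genes the ranges of all 4 groups overlapped. SINVBB1_00137, a lower member, had medians of 2250 CPM in mBB and 2045 in mpBB, against 395 in pBB and 708 in pBL. Its highest value of all, 10858 CPM, was nevertheless in a pBB gaster, replicate 1, and its mean CPM in pBB, 2246, was close to that of mBB at 2285. The level of a gene in CPM is not per length, so levels are not ranked between genes here.

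The second largest gap rested on 2 libraries. SINVBB1_06115 had 0.0153 CPM in the gaster of pBB replicate 8 and 0.129 CPM in that of pBL replicate 8, and between 879 and 3748 CPM in the other 22 gasters. Its origin difference was -1.85 on the log2 scale with all libraries and 0.09 without these 2. Counted over pairs of libraries, 49.3% lay in its direction. Leaving out both gasters, an alternative chosen after the data were seen, kept 62 of the 100 members in the list. Single gasters with far lower values than their group's median were also seen in other members. SINVBB1_15449e had 0.121 CPM in mBB replicate 3 and 0.0668 in mpBB replicate 10, against 9.17 to 38.5 CPM in the other 22 gasters. SINVBB1_10736, picked for mention after its values were seen, had no count in gasters mBB 3 and mBB 8 and 0.0167 CPM in mpBB 10, against group medians of 12.2 and 14.0 CPM.

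The members varied more within groups than other genes did. The rule ranked gaps without scaling them by this spread, so the choice itself favours genes that vary widely. The spreads come from the same gasters that chose the members and are a description. Their pooled within-group SD had a median of 0.63 log2 units, against 0.27 over the 9516 genes, and 91.4% of those genes had an SD below the members' median. The gap was larger than the SD in 22 of the 100. The ratio of gap to SD ran from 0.137 to 1.77 with a median of 0.749. In 15 members, or 15%, the values within a group spanned at least 16-fold, against 1.39% of all 9516 genes. Over pairs of a polygyne-origin and a monogyne-origin gaster, the share in the member's direction ran from 48.6% to 93.8% with a median of 77.4%. The libraries of the origins overlapped in every member. Of the 9516 genes, 0 (0.0%) had libraries of the origins that did not overlap.

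**Figure D2:**
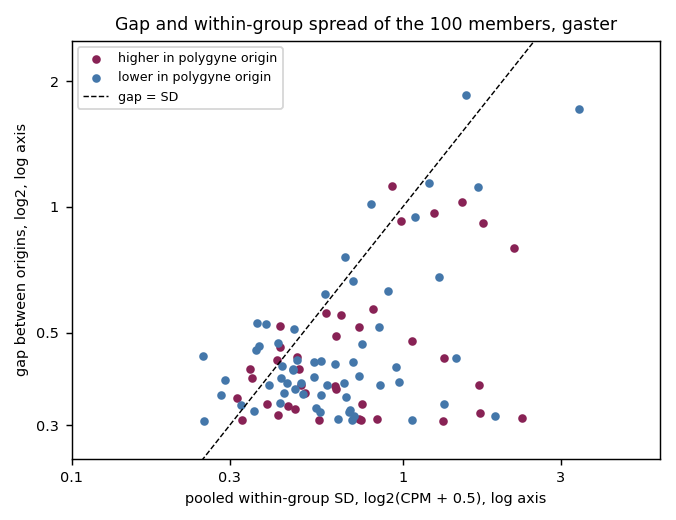
Gap between origins against the pooled within-group SD in gaster for the 100 members, both in log2 units on log axes. Points above the dashed line, 22 of the 100, have a gap larger than their SD, and the 2 largest gaps are 1.85 and 1.71.

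The individual numbers in the labels fall into a low and a high series, split here at 140. What the series stand for is not given. In gasters numbered under 140 alone, 98 of the 100 members kept the direction of their origin difference and in 87 the group means stayed separated in that direction. In gasters numbered over 140 alone these were 91 and 76, and 64 members were separated in both. SINVBB1_06115 was among those that turned, with an origin difference of 0.22 over 140. SINVBB1_15449e kept its sign over 140, at 0.11, but its group means were not separated there. Each series is a part of the gasters whose means chose the members, so the choice itself favours kept directions and separated means. The shares over all genes are not given for either series. The counts of members kept and separated are therefore a description and no separate evidence of an origin difference. When the list was formed anew in each series, 39 and 32 of its 100 members recurred. With each of the 24 gasters left out in turn, 64 to 87 members recurred, the fewest without mpBB replicate 10, and 84 without pBB replicate 3. Only 13 members were in all 24 such lists, and the median member was in 19.

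No member was read mainly from the forward strand, against 2.77% of all 9516 genes. Some members stand next to each other in the row order of the count files. There were 7 pairs of members within 2 rows, 4 of them in adjacent rows, and in all 7 both genes had the same direction. How often neighbouring rows share a direction over all genes is not given, so these counts are a description. The row order is as deposited, and neighbouring genes can share reads where they overlap.

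The same genes were then followed in brain. All 100 had at least a count in brain, and their mean level there ran from 0.00622 to 359 CPM with a median of 1.74. The mean was at least 1 CPM in 56 members and under 0.1 CPM in 8. After the filter on low counts 81 of the 100 remained among the 12006 genes tested. The other 19 had too few brain counts and were not tested. The members' median within-group SD in brain was 0.43 log2 units, against 0.30 over all genes tested.

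In brain, 0 of the 81 members passed an adjusted p of 0.05 for origin with edgeR's quasi-likelihood test and Benjamini-Hochberg adjustment over 12006 genes. That threshold was passed by 0.208% of all genes tested, 25 in number. At an unadjusted p under 0.05 there were 11 of the 81 members (13.6%), against 4.91% of all genes. All 11 had the sign of their gaster difference, 4 higher and 7 lower. The share with their gaster sign among all genes at that unadjusted p is not given, so this count is a description. With DESeq2, 1 member passed the adjusted threshold, against 0.425% of all genes. The lowest adjusted p of a member with edgeR was 0.151. Over the whole list, 45 of the 81 members (55.6%) had the sign of their gaster difference, beside 58.9% of all 12006 genes. Among the 50 and the 200 genes with the largest gaps the share was 57.5% and 64.1%, the latter above that of all genes. The median brain difference signed by the gaster direction was 0.03 log2 units in the members and 0.02 in all genes. Most of the workers gave both tissues, so the brains are not from a separate set of animals. In the 8 brains of workers without a gaster library, 52 of 90 members (57.8%) had the sign of their gaster difference. The share over all genes is not given for these 8 brains, so this count shows neither agreement nor its lack. Without the brain labelled pBB replicate 3, 0 of 83 members tested were called in any of the 4 comparisons, and 46 of them (55.4%) had their gaster sign for origin. The shares over all genes are not given for that setting. With all brains edgeR called at most 0.516% of genes in a comparison, so 0 calls say little about the members.

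The member with the smallest p was SINVBB1_10586, lower in polygyne-origin gasters with a gap of 0.38. In brain it had 4.81, 6.11 and 7.85 CPM at the lowest, median and highest in mBB, and 4.24, 6.11 and 8.38 CPM in mpBB. It had 2.75, 3.94 and 5.30 CPM in pBB, and 2.66, 4.44 and 7.70 CPM in pBL. The pBB and pBL medians lay below every mBB value, and the ranges overlapped, the furthest through the brain of pBL replicate 2 at 7.70 CPM. Its origin difference was -0.54 log2 units (SE 0.14), with an adjusted p of 0.151 by edgeR. The adjusted p was 0.0338 with DESeq2 and 0.0336 with edgeR without the 3 brains that stood apart. Without the brain of pBB replicate 3 it was 0.0844.

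SINVBB1_14953 had medians of 5.23 CPM in mBB, 4.67 in mpBB, 3.42 in pBB and 2.96 in pBL. The difference was -0.71 (SE 0.22) with an edgeR adjusted p of 0.418, and the highest brain, 11.1 CPM, was mBB replicate 4, 1 of the 3 that stood apart. SINVBB1_10603 had medians of 60.3 CPM in mBB and 51.1 in mpBB against 91.0 in pBB and 78.8 in pBL. Its lowest brain was mBB replicate 3 at 13.3 CPM and its highest was pBL replicate 4 at 206 CPM. The difference was 0.82 (SE 0.24) with an edgeR adjusted p of 0.296. SINVBB1_00382 had medians of 40.5 and 34.5 CPM in mBB and mpBB against 53.9 and 48.2 in pBB and pBL, a difference of 0.35 (SE 0.13) with an edgeR adjusted p of 0.791. In these 3 genes all 4 groups overlapped. No member, and 0.0% of the 12006 genes, had brain libraries of the origins that did not overlap.

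**Figure D3:**
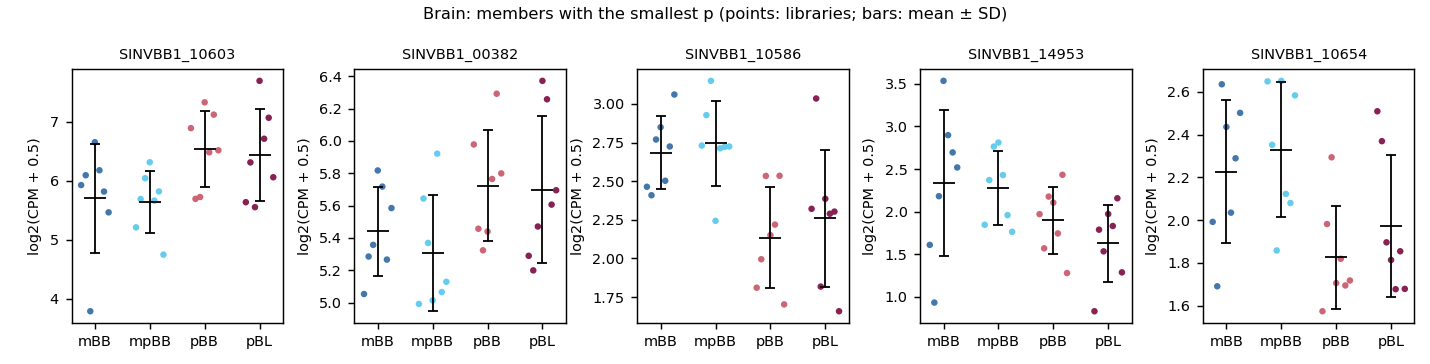
Level of 5 members in each brain library, as log2(CPM + 0.5), by group. Points are libraries, 7 a group, and bars show the mean ± SD. SINVBB1_10586, SINVBB1_14953 and SINVBB1_10654 lie lower and SINVBB1_10603 and SINVBB1_00382 higher in pBB and pBL, with overlap between the groups.

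The members with the largest gaps in gaster, or the largest relative to their spread, had no brain difference past the adjusted threshold. SINVBB1_04374 had 4.30 ± 1.18 CPM in mBB, 5.15 ± 1.04 in mpBB, 3.76 ± 1.23 in pBB and 3.90 ± 1.33 in pBL (SD, n = 7 each), with a brain origin difference of -0.31 (SE 0.17). SINVBB1_14742 was close to 0 in brain, with a mean of 0.0776 CPM, and was not tested. SINVBB1_01717 had brain means of 24.4, 25.8, 23.9 and 24.7 CPM in mBB, mpBB, pBB and pBL, and its brain origin difference was -0.06 (SE 0.07). SINVBB1_05365 had 2.05 ± 1.12 CPM in mBB and 2.69 ± 0.998 in mpBB against 1.46 ± 0.519 in pBB and 1.63 ± 0.715 in pBL (SD, n = 7 each). Its difference of -0.61 (SE 0.23) had an edgeR adjusted p of 0.857. The members' brain differences had a median size of 0.14, against 0.08 over all genes, and a median SE of 0.22, against 0.12.

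**Figure D4:**
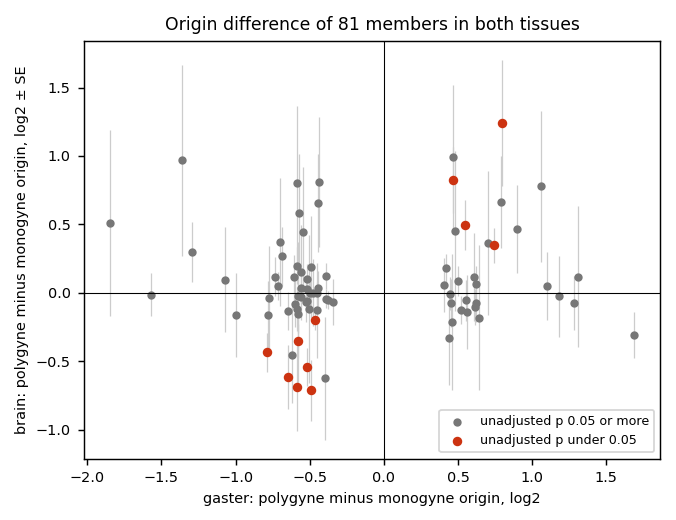
Origin difference of the 81 members tested in brain, with the gaster difference in log2 units on the horizontal axis and the brain difference ± SE on the vertical axis. Red points, 11 in all, have an unadjusted p under 0.05 in brain and lie in the quadrants where both tissues share a sign. Grey points lie in all 4 quadrants.

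In pBB against mpBB, which share genotype and host form, no member and 0.0% of all genes passed the adjusted threshold with edgeR. At an unadjusted p under 0.05 there were 6 of the 81 members (7.41%), against 1.57% of all genes, and all 6 had their gaster sign. The share with that sign among all genes at that unadjusted p is again not given. DESeq2 called 0 members, against 0.00833% of all genes. The lowest p belonged again to SINVBB1_10586, at -0.67 log2 units (SE 0.20), followed by SINVBB1_10654 at -0.59 (SE 0.20), SINVBB1_05365 at -0.90 (SE 0.33) and SINVBB1_10603 at 0.92 (SE 0.34). SINVBB1_10654 had 4.62 ± 1.08 CPM in mpBB and 3.09 ± 0.653 in pBB (SD, n = 7 each). SINVBB1_00382 differed by 0.40 (SE 0.18). All 5 had an edgeR adjusted p of 0.9999. This comparison shares the pBB and mpBB brains with the pooled origin contrast, so the recurring genes are not separate evidence.

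Genotype and host were compared in brain in the same way. Between pBL and pBB, 0 of the 81 members passed the adjusted threshold, against 0.516% of all genes with edgeR. At an unadjusted p under 0.05 there were 3 members (3.70%), close to the 3.54% of all genes. DESeq2 called 0 members, against 0.716% of all genes. SINVBB1_04702 had the lowest p, with 73.6 ± 22.7 CPM in pBB and 52.4 ± 8.29 in pBL (SD, n = 7 each), a difference of -0.46 (SE 0.14) and an edgeR adjusted p of 0.359. The values of SINVBB1_04702 were 49.5 to 118 CPM in pBB and 41.99 to 65.6 in pBL, and the highest was pBB replicate 1. SINVBB1_03202 and SINVBB1_11532 had fitted differences of 1.73 (SE 0.64) and 1.97 (SE 0.82). Their levels in brain were low, with medians of 0.768 and 0.422 CPM in pBL, and the 2 highest pBL brains reached 5.21 and 3.91 CPM for SINVBB1_03202. SINVBB1_13892 had a fitted difference of -0.79 (SE 0.50), with pBB replicate 1 at 9.50 CPM and the other pBB brains at 0.884 to 3.001 CPM.

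Between mpBB and mBB, 0 members and 0.0% of all genes passed the adjusted threshold with edgeR. At an unadjusted p under 0.05 there were 2 members (2.47%), against 2.27% of all genes. DESeq2 called 0 members, against 0.00833% of all genes. SINVBB1_11532 had a fitted difference of 2.11 (SE 0.86), with the brain of mpBB replicate 11 at 4.00 CPM and the other mpBB brains at 0.0678 to 0.375 CPM. SINVBB1_07073 had a fitted difference of 1.85 (SE 0.78), with medians of 0.264 CPM in mBB and 0.997 in mpBB. SINVBB1_15024 and SINVBB1_08445 had fitted differences of -1.33 (SE 0.70) and -0.44 (SE 0.28). All 4 had an edgeR adjusted p of 1.

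A comparison added after the data were seen asked whether a worker high for a member in gaster was also high in brain. It used deviations from the group mean in log2(CPM + 0.5) for the 8689 genes, 56 of them members, with a mean of at least 1 CPM in both tissues. Workers were permuted within groups 100000 times, and p was adjusted over 8689 genes. The permutation did not keep workers of the same replicate number together. Same-numbered pBB and pBL gasters deviated together, with correlations from 0.0934 to 0.494. A level shared by a replicate number could therefore count as a worker's level. With all 20 workers 5 of the 56 members (8.93%) passed, against 2.01% of all genes. Without pBB replicate 3 there were 7 (12.5%), against 2.13%. All 7 were positive, and the 5 called with all workers were among them. By ranks, 3 passed with 20 workers, against 1.13% of all genes. A correlation above 0.5 was seen in 11 members (19.6%) with or without that worker, against 8.02% and 8.62% of all genes. The median correlation of the members was 0.168 with 20 workers, against 0.0107 over all genes. The members had been chosen from gaster values and had wide spreads, which move with this count. The part of that spread in the count was not tested.

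For most of these genes the workers fell into a low and a high set that recurred in both tissues, so no pooled correlation is given. SINVBB1_15449e was near 0 in both tissues of mBB 3 and mpBB 10, with 0.0762 and 0.105 CPM in brain, and had 15.9 to 64.5 CPM in the brains of the other 17 workers without pBB 3. SINVBB1_11501, the next row in the count files, had no count in either tissue of 2 workers, mBB 3 and mpBB 10, and 1.14 to 3.33 CPM in gaster and 6.29 to 27.9 CPM in brain in the other 17. In pBB replicate 3 both genes were present in gaster, at 24.3 and 2.84 CPM, and had no count in brain. Both low gasters were of monogyne origin, and these genes were counted among the higher members. In brain the pBB library labelled replicate 3 was low as well, and the brain origin differences were 0.12 for SINVBB1_15449e and -0.18 for SINVBB1_11501.

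Other members split more evenly, again in the 19 workers without pBB replicate 3. SINVBB1_10127b had 0.103 to 1.02 CPM in gaster and 0.642 to 3.10 in brain in 12 workers, and 1.71 to 5.85 and 5.33 to 17.9 CPM in the other 7. SINVBB1_05273 had 0.324 to 1.17 CPM in gaster and 0.581 to 4.22 in brain in 7 workers, and 1.57 to 3.69 and 10.6 to 16.7 CPM in the other 12. SINVBB1_07479 had 61.1 to 106.5 CPM in gaster and 50.2 to 65.1 in brain in 14 workers, and 166 to 385 and 80.2 to 128 CPM in the other 5. Of these 19 workers the high set of SINVBB1_07479 held 2 of mBB and 3 of mpBB, and its low set held workers of all 4 groups. In pBB replicate 3 it had 94.3 CPM in gaster, within the low range, and 84.9 CPM in brain, within the high range. Low and high workers of SINVBB1_10127b and SINVBB1_05273 occurred in all 4 groups. SINVBB1_05201 was low in both tissues of a single worker, mpBB 11, and had 8.47 to 39.5 CPM in gaster and 12.6 to 52.4 CPM in brain in the other 18. SINVBB1_03177 had no clear split, with 0.479 to 3.24 CPM in gaster and 1.21 to 18.03 in brain.

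**Figure D5:**
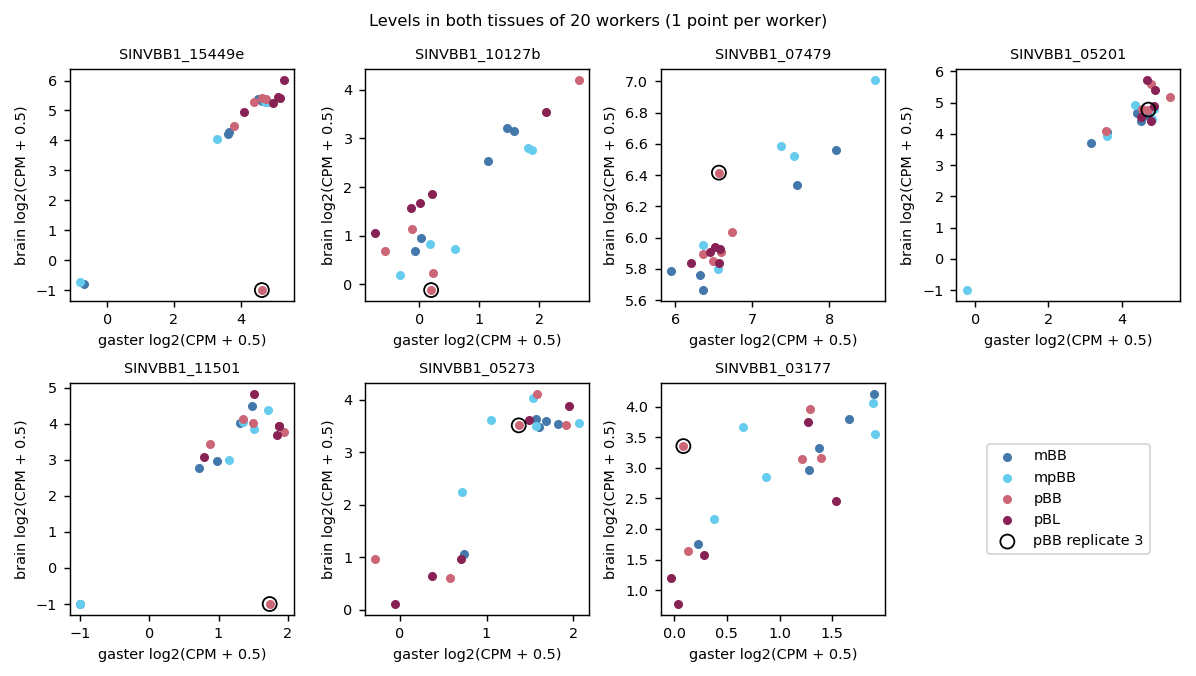
Brain against gaster level, as log2(CPM + 0.5), for 7 members in the 20 workers that gave both tissues, 1 point a worker and coloured by group. The circled point is pBB replicate 3, which lies off the pattern in SINVBB1_15449e and SINVBB1_11501, and most panels show separate low and high workers.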

How the data were processed

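RNA was sequenced from 28 brains and 24 gasters of single workers. The authors deposited 1 table of raw counts per gene and library with an unstranded and 2 stranded columns. The submitters' processing notes name Trim Galore, STAR and edgeR, and no source used here gives the annotation or build behind the counts. The unstranded column was used for brain and the reverse-strand column for gaster, since 49.7% to 50.1% and 96.1% to 97.1% of stranded counts were on the reverse strand. Unmapped reads reached 29.2% in brain. In gaster they reached 53.4% in pBB replicate 1 and at most 28.8% in any other library. That gaster also had the fewest counts in genes, 30006031. Of all gasters it had the highest values of SINVBB1_00137, SINVBB1_02585, SINVBB1_03202, SINVBB1_07073 and SINVBB1_15024, and the lowest of SINVBB1_04702 and SINVBB1_10586. Without it the gaster list kept 78 of its 100 members. CPM were computed on the counts in genes, with a pseudocount of 0.5 on the log2 scale. Depth limits precision for members under 1 CPM.

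Brain counts were tested with edgeR 4.0.16 (R 4.3.3) by quasi-likelihood over all 28 brains and 12006 genes, with TMM scaling, its filter on low counts and Benjamini-Hochberg adjustment at 0.05. The SE of a brain difference is its size divided by the square root of edgeR's F statistic. Such an SE is unreliable where the difference is close to 0. DESeq2 1.42.0 was an alternative. Other scalings, filters, sets of libraries and the replicate number as a block were tried too. Replicate numbers are shared by mBB, pBB and pBL. Same-numbered pBB and pBL brains deviated together in all 7 pairs, with correlations from 0.143 to 0.497, so these were treated as paired in that alternative. The methods were tested on simulated data.

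The members and lists were chosen with earlier results of these data known. Identifiers were named by fixed rules, 2 for each direction by largest gap, highest CPM, gap over SD and smallest p in each brain comparison. Others are named after their values were seen. The comparison of tissues within workers, the check of worker identity, the row neighbours and the 16-fold range were added after the data were seen. Lists by gene function and marker genes were not run, since no identifier matched a name.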

Additional observations from a re-analysis of the deposited data

Results flagged for a closer look

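Among the named members, 88 groups of 6 or 7 libraries were searched for a library far from the others in log2(CPM + 0.5), and 10 were found. The search did not take in both tissues of every named member. Chance gives about 1 in 20 groups. In gaster, SINVBB1_06115 stood far below its group in pBB replicate 8, at 0.0153 CPM, and in pBL replicate 8, at 0.129 CPM. SINVBB1_15449e stood far below in mBB replicate 3, at 0.121 CPM, in mpBB replicate 10, at 0.0668 CPM, and less so in pBL replicate 5, at 16.6 CPM. SINVBB1_12157 was lowest in pBB replicate 6, at 1153 CPM where the next pBB gaster had 2251. In brain, SINVBB1_11532 stood above its group in mpBB replicate 11, at 4.00 CPM, and SINVBB1_10603 below it in mBB replicate 3, at 13.3 CPM. SINVBB1_13892 stood above its group in mBB replicate 1, at 2.46 CPM, and SINVBB1_15024 in pBB replicate 2, at 0.835 CPM. The brains of SINVBB1_15449e were not part of the search. They had 0.0762 CPM in mBB 3, 0.105 in mpBB 10 and 0 in pBB 3. Its other brains had 15.9 CPM or more. What lies behind these values was not tested.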

How the results depend on the processing

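In brain, 197 of the named members' values kept their direction and their side of the threshold under the alternatives run, and 2 were reversed. In gaster, where groups were not tested, 318 kept their direction and 2 were reversed. The gaster alternatives reused the gasters that chose the members, so the choice itself favours kept directions there. The count of 318 is therefore no separate evidence of an origin difference. The reversed values were those of SINVBB1_13892 and SINVBB1_06115. The brain difference of SINVBB1_13892 between pBL and pBB was 0.17 in workers numbered over 140 alone and 0.22 in brains without a gaster. The gaster origin difference of SINVBB1_06115 was 0.22 over 140 and 0.092 without pBB and pBL replicates 8. SINVBB1_10586 passed the adjusted threshold for origin with DESeq2 and without the 3 distant brains, which gives 1 member called in each. The share of all genes called was 0.425% with DESeq2 and is not given without those brains. The gaster list kept 39 of 100 members under 140 alone, 32 over 140 alone, 62 at a minimum of 5 CPM, 62 without replicates 8 of pBB and pBL, and 64 to 87 with a gaster left out. Other settings (pseudocount, TMM, unstranded column, 0.1 and 2 CPM) kept 70 to 92. By ranks 3 members followed the worker across tissues. With the replicate number as a block, over mBB, pBB and pBL, 0 members were called for origin and 0 for pBL against pBB. The block thus changed no member's call, but the share of all genes called with it is not given. Same-numbered mBB and pBB brains correlated at 0.0632 or more, and 5 of the 7 mBB brains correlated best with the pBB brain of their own number. No paired analysis was possible for pBB against mpBB because they share no replicate number. For the results that changed, the cause was not tested.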
